A study of Rattus norvegicus with 12 samples.

Results

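The genes described here encode the subunits of neurotransmitter receptors: the ion channels and G protein-coupled receptors through which neurons and glia of the spinal cord respond to glutamate, GABA, glycine, acetylcholine, serotonin, dopamine and noradrenaline. They were chosen by gene symbol, as the families Gria, Grid, Grik, Grin, Grm, Gabr, Gabbr, Glra, Glrb, Chrn, Chrm, Htr, Drd, Adra and Adrb, and kept where the probe was detected at a detection p-value under 0.05 on at least 2 of 12 arrays. Of 84 probes with such a symbol, 53 passed, with 1 probe per gene, out of 13793 probes tested in all. Among the 53, Grid2ip matches the spelling but encodes a synaptic scaffold protein, so 52 are receptor subunits.

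The animals were female Sprague-Dawley rats, 10 weeks old, and RNA was taken from the thoracic cord. One genotype carried the G93A SOD1 mutation, a model of amyotrophic lateral sclerosis, and the other was wild type, from the same litters. In each genotype, cords were collected 30 min, 4 h, 24 h and 7 d after a mild compression injury, or 30 min and 4 h after a sham operation. RNA of rats of the same genotype, operation and time was mixed, and the 12 resulting pools were each hybridised to 1 Illumina rat array. No sham pool was made at 24 h or 7 d, so injury at those times was compared with the mean of the 4 sham pools, and time after the operation differs between the sides of that comparison. The sources used here do not give the number of rats in a pool, nor the promoter and line of the SOD1 transgene. A group is thus 1 pool, and no group has a replicate. Behind the p-values of the main fit stands the spread, over the 6 conditions, of the gap from wild type to G93A. A genotype effect that varies with time would widen this spread, as would an odd pool, and both would enter the standard error of every comparison. Part of the spread may be technical.

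Fast excitation in the cord runs through AMPA and NMDA glutamate receptors and fast inhibition through GABA-A and glycine receptors, all of them ion channels built from several subunits. Metabotropic glutamate, GABA-B, muscarinic, most serotonin, dopamine and adrenergic receptors act more slowly through G proteins and set the excitability of spinal circuits. The serotonin and adrenergic ones are under control of fibres that descend from the brainstem. GABA-B works only as a pair of Gabbr1, which binds GABA, and Gabbr2, which couples to the G protein. Grin1 is the subunit that every NMDA receptor needs.

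The gene names rest on an inferred pairing of probes and values. In the deposited files the probe identifiers stood beside values of other probes, so they were sorted as text while the value lines kept their order. After sorting, 8.20% of 185 olfactory receptor probes and 90.5% of 111 ribosomal and proteasome probes were detected on average, against 48.3% and 52.8% as deposited. The authors do not state such a step in the sources used here, and every value below depends on it.

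Values are log2 levels after background correction and quantile normalization, with a floor near 6.47, so that a log2 difference of a dim probe understates its change. Deposited array signals, which can lie below 0 after background subtraction, are given for the dim probes. Levels of different genes are not compared, because each probe has its own brightness. Of the 53 members, 16 were detected on all 12 arrays, and 20 had a mean signal of at least 30, against 65.2% of all tested probes. Just inside the threshold, with detection on 2 arrays, stood 3 members, Adrb3, Chrna9 and Gabrp, whose mean signals were 6.73, 5.38 and 3.52. Just outside, with detection on 1 array, stood 6 genes, Chrna2, Drd4, Drd5, Grik3, Grm6 and Htr5b, whose mean signals ran from -0.279 to 5.32.

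The share of all probes detected was 49.6% to 53.8% in 11 pools and 41.3% in the wild-type 30 min injury pool, where the lowest detected signal was 17.99, against 5.33 to 8.75 in the others. That pool stood apart in levels too: 1064 probes differed at least 2-fold between the genotypes at 30 min after injury, against 6 to 116 in the other 5 conditions. It was the highest of the 12 pools for 15 members and the lowest for 8, and for 24.8% and 23.6% of all probes. The late counts of called members and of the other gene lists are therefore given with and without it. The neuron markers Snap25, Thy1, Uchl1 and Nefl were detected in all pools, and the sensory ganglion marker Scn11a, the neutrophil markers S100a9 and Ngp, the endothelial marker Cdh5 and the muscle marker Myh4 were not detected on 2 arrays. The same lists also held detected markers, 2 of sensory ganglion neurons, 5 of neutrophils, 3 of endothelium and 7 of muscle. The summed signal of the neutrophil markers was 93.75 to 720.3 in the sham pools. After injury it was 616.4 to 1663 at 4 h, 1001 to 1343 at 24 h and 67.64 to 401.5 at 7 d. That of the endothelial markers was 3175 to 3883 in the sham pools and 1299 to 1594 at 4 h after injury. The skeletal muscle markers were uneven, with a summed signal of 1769 in the wild-type 4 h sham pool and 1481 in the wild-type 30 min injury pool, against 106.4 to 588.5 in the other 10. Their part in the results was not tested. The probe for Sod1 itself lay between 12.29 and 12.95 in all pools and differed between the genotypes by -0.051 ± 0.096 (SE) on the log2 scale (limma, adjusted p = 0.979). Which Sod1 transcript, the rat's own or the transgene's, this rat probe detects was not tested.

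The promoters of 3 genes are shown because Grin1, Gabbr2 and Gabbr1 were among the members that fell most strongly late after injury. Each line gives the 250 bases before the annotated start of the gene, 5′ to 3′ on the strand of the gene, from RefSeq on the rat build GRCr8. They lie at chr3:28528755-28529004 on the minus strand for Grin1, at chr5:66083696-66083945 on the minus strand for Gabbr2 and at chr20:1499237-1499486 on the minus strand for Gabbr1. Capitals mark matches to the GC box GGGCGG on either strand.
Grin1: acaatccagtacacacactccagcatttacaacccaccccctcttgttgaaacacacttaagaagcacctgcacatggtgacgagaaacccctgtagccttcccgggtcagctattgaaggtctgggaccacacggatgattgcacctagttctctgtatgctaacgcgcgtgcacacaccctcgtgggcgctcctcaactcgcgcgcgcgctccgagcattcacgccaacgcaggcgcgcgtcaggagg
Gabbr2: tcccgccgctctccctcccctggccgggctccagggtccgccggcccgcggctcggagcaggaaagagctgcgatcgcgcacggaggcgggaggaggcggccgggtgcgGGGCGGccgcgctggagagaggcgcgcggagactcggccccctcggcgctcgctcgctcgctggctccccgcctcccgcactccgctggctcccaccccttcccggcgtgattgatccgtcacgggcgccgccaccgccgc
Gabbr1: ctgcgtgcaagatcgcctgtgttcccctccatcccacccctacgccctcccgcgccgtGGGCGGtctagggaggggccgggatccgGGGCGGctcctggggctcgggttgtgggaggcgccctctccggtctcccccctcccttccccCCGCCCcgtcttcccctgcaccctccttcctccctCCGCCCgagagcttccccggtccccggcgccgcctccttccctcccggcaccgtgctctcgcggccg
The stretch before Grin1 held no GC box, that before Gabbr2 held 1 and that before Gabbr1 held 4, and their shares of G and C were 57.6%, 78.8% and 75.6%. Of the 53 members, 38 had a promoter in the table, and 20 of these held a GC box, which 30.5% of all 33469 promoters of this length hold. Among the 13 with a promoter that were lower at 24 h or 7 d, 8 held one. The median share of G and C was 60.8% for the members, 65.2% for those 13 and 51.2% for all promoters. A further 4 motifs were searched on both strands: TGACGTCA, the cAMP response element, was in 0 of the 38, TTCAGCACC and GGACAGC, the left and right parts of the REST element, were in 0 and 1, and TATAAA was in 1. All promoters held them in 1.59%, 0.305%, 5.30% and 12.9% of cases. A match describes the letters of this window and is not evidence of a bound factor.

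After injury a part of the receptor genes was lower at the late times, and 1 was higher. At 24 h, 13 of the 53 members were lower than in the sham pools (24.5%), and 0 were higher. Over all tested probes 9.37% were lower and 11.4% were higher, a split that median scaling in place of quantile normalization moved from 1578 higher and 1292 lower to 1906 and 831. At 7 d, 13 members were lower, against 9.63% of all probes, and 1, Htr2b, was higher, against 11.4% of all probes, and here median scaling moved the split of all probes from 1571 higher and 1328 lower to 1092 and 1599. The 2 times share their sham pools, so their counts are not independent. The 11 members lower at both were Gria2, Gria3, Gria4, Grin1, Gabra5, Gabbr1, Gabbr2, Glrb, Chrna3, Chrm3 and Htr7, while Gabrb1 and Chrna5 passed at 24 h alone and Chrm2 and Adra1b at 7 d alone. Gria4 and Chrm2 were detected in no late pool. They are members only through sham or early injury pools, so their falls describe that choice, and both stay in these counts. Leaving out 1 pool moved these counts, and those of all probes with them. Where a pool of injury at 30 min was left out, the genotype gap of that condition no longer entered the standard errors. At 24 h, where 1292 of all probes were lower, lower members went to 0 (67 probes) without the wild-type 24 h pool and to 3 (310 probes) without the G93A one. They went to 5 and 6 (608 and 528 probes) without the wild-type sham pools of 30 min and 4 h, and to 20 and 19 (2608 and 2617 probes) without the wild-type and G93A pools of injury at 30 min. At 7 d, where 1328 of all probes were lower, lower members went to 1 (105 probes) without the wild-type 7 d pool and to 5 (615 probes) without the G93A one. They went to 7 and 5 (734 and 621 probes) without the wild-type sham pools of 30 min and 4 h, and to 21 and 20 (2594 probes in both cases) without the wild-type and G93A pools of injury at 30 min. Every late call of a member but that of Gabbr2 at 7 d was lost without the wild-type pool of its own time.

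**Figure D1:**
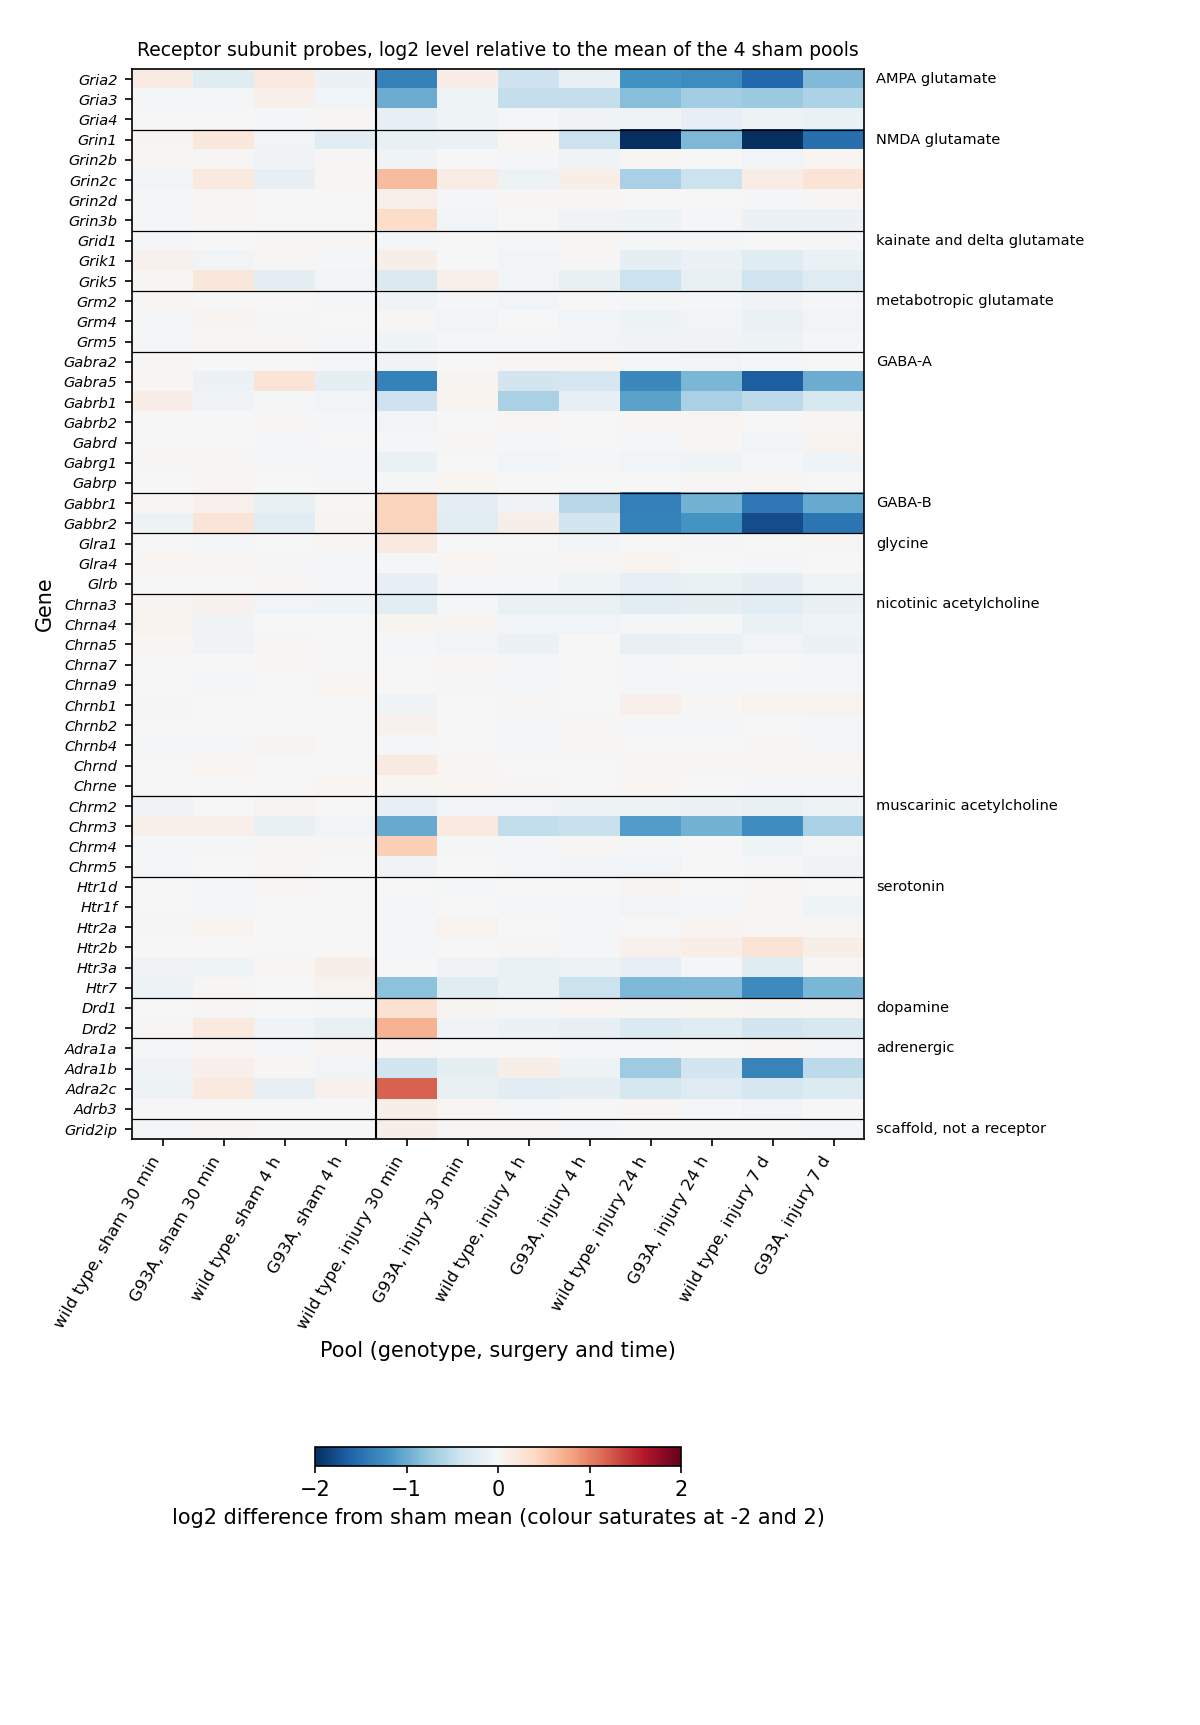
Log2 level of the 53 members, 52 receptor genes and Grid2ip (rows, grouped by transmitter) in each of the 12 pools (columns), as the difference from the mean of the 4 sham pools. Colour saturates at -2 and 2, blue is lower and red higher, and a vertical line parts the sham pools from the injury pools. Grin1, Gabbr1, Gabbr2, Gria2, Gabra5 and Htr7 are blue in all 4 pools of 24 h and 7 d, and the wild-type 30 min injury pool has strong colours of both signs.

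The median log2 difference over the 53 members was -0.037 at 24 h and -0.054 at 7 d, against -0.0062 and -0.0096 over all probes. With the first deposited table, 39 and 41 of the 53 lay below 0 at 24 h and 7 d (73.6% and 77.4%), against 52.8% and 54.7% of all probes. With the second deposited table in its place, the median at 24 h was 0.018 (0.076 over all probes), and 26 of the 53 lay below 0. At 7 d the median with the second table was -0.096 (0.030 over all probes), and 29 lay below 0. The share of all probes below 0 was not counted with that table. The 20 members with a mean signal of at least 30 had medians of -0.54 and -0.38, against -0.021 and -0.037 for all probes that bright, and 10 of the 20 were lower at each time. Of the 33 dimmer members, 3 were lower at each time and 1 was higher at 7 d. The share of calls among all probes of like brightness was not counted, so these counts cannot be set against it. Counted by position alone, both late pools lay under all 4 sham pools for 28 members at 24 h and for 28 at 7 d, which is 52.8% of the members against 29.8% of all probes at either time. Both late pools lay above all sham pools for 3 members at each time (5.66%), against 26.3% and 24% of all probes. These were Gabrb2, Chrnb1 and Htr2b at 24 h and Chrnb1, Htr2b and Drd1 at 7 d. Gabrb2 was detected in both 24 h pools and the G93A 7 d pool and on no other array. It and Htr2b are members only through late pools, so their place above the sham pools describes that choice. The same limit holds below: some members under the sham pools were detected in no late pool. These were Gria4, Grm4, Chrna7, Chrna9, Chrnb2 and Chrm2 at 24 h and Gria4, Grm2, Grm4, Chrna7, Chrm2, Chrm5 and Adrb3 at 7 d. They are members only through sham or early injury pools, so their low place describes that choice at least in part.

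Among the glutamate receptors, Grin1 moved furthest. Its log2 level was 10.76 and 10.66 in the wild-type sham pools of 30 min and 4 h and 10.91 and 10.49 in the G93A ones. After injury it was 10.56, 10.74, 8.66 and 8.16 in wild type at 30 min, 4 h, 24 h and 7 d, and 10.57, 10.28, 9.80 and 9.19 in G93A. The early pools lay with the sham pools or just under them, and all 4 late pools lay well below. Grin1 was 2.78-fold lower at 24 h (log2 difference -1.48 ± 0.31 SE, adjusted p = 0.00803) and 4.07-fold lower at 7 d (-2.03 ± 0.31, adjusted p = 0.00122). The call was lost without the wild-type pool of the time concerned, where the log2 difference became -0.96 (adjusted p = 0.197) at 24 h and -1.58 (adjusted p = 0.0530) at 7 d.

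The other NMDA subunits did not pass. Grin2c, a modulatory subunit, had log2 levels between 7.25 and 7.61 in the 4 sham pools, 6.77 in wild type and 6.98 in G93A at 24 h, and 7.56 and 7.69 at 7 d. The 24 h pools lay under all sham pools and the 7 d pools did not. Its log2 difference was -0.54 ± 0.19 at 24 h (adjusted p = 0.0691) and 0.21 ± 0.19 at 7 d (adjusted p = 0.498). Between 24 h and 7 d the difference was 0.75 ± 0.22 (adjusted p = 0.0922), the smallest p of any member in that comparison. Grin2b, Grin2d and Grin3b were dim and their log2 differences lay between -0.11 and 0.015.

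All 3 detected AMPA subunits passed as lower at both late times, though Gria4 is a member only through sham and early injury pools. Gria2, the subunit that keeps AMPA receptors from passing calcium, had log2 levels of 9.92 and 9.95 in the wild-type sham pools of 30 min and 4 h and 9.51 and 9.64 in the G93A ones. It was 8.40, 9.34, 8.55 and 8.19 in wild type from 30 min to 7 d after injury and 9.90, 9.61, 8.49 and 8.87 in G93A. The late pools did not overlap the sham pools, and the wild-type 30 min pool was as low as the late ones while its G93A partner was not. The log2 difference was -1.23 ± 0.34 at 24 h (adjusted p = 0.0263) and -1.23 ± 0.34 at 7 d (adjusted p = 0.0255). These calls were lost in 7 and 6 of 21 alternatives.

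Gria3, another AMPA channel subunit, ran from 7.51 to 7.67 in the sham pools and was 6.71 and 6.87 at 24 h and 6.82 and 6.93 at 7 d in wild type and G93A. The late pools lay under every sham pool, with log2 differences of -0.77 ± 0.20 (adjusted p = 0.0198) and -0.69 ± 0.20 (adjusted p = 0.0308). The calls were lost in 5 and 11 of 21 alternatives. Gria4, the third AMPA subunit, was dim: its deposited signal was 26.1 to 35.6 in the sham pools, 5.94 in wild type and -5.59 in G93A at 24 h, and 4.24 and -0.128 at 7 d. It was detected in all 4 sham pools and in none of the 4 late pools. It is thus a member only through sham and early injury pools, and its fall is a description of that choice. Its late level is only a bound, and it was at least 1.06-fold lower at 24 h (adjusted p = 0.0169) and at least 1.07-fold lower at 7 d (adjusted p = 0.0221). These calls were lost in 5 and 7 of 21 alternatives.

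None of the 3 kainate and delta and none of the 3 metabotropic glutamate receptor genes passed at 24 h or 7 d. Grik5, a kainate subunit, had the largest difference among them, -0.29 at 24 h (adjusted p = 0.110). At 7 d it was undetected in both pools and at least 1.25-fold lower, short of the threshold (adjusted p = 0.0795). It was called undetected on 3 arrays in all. Its signals there were 109.4 in G93A at 4 h after injury and 52.7 and 88.1 in wild type and G93A at 7 d. An undetected call at a signal above 50 held for no other member, and the 7 d bound rests on such calls. Grm4, a presynaptic metabotropic receptor, was nearest to the threshold of its class. It was undetected in all 4 late pools, and the bounds were at least 1.04-fold lower at 24 h (adjusted p = 0.141) and at least 1.03-fold lower at 7 d (adjusted p = 0.0902).

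**Figure D2:**
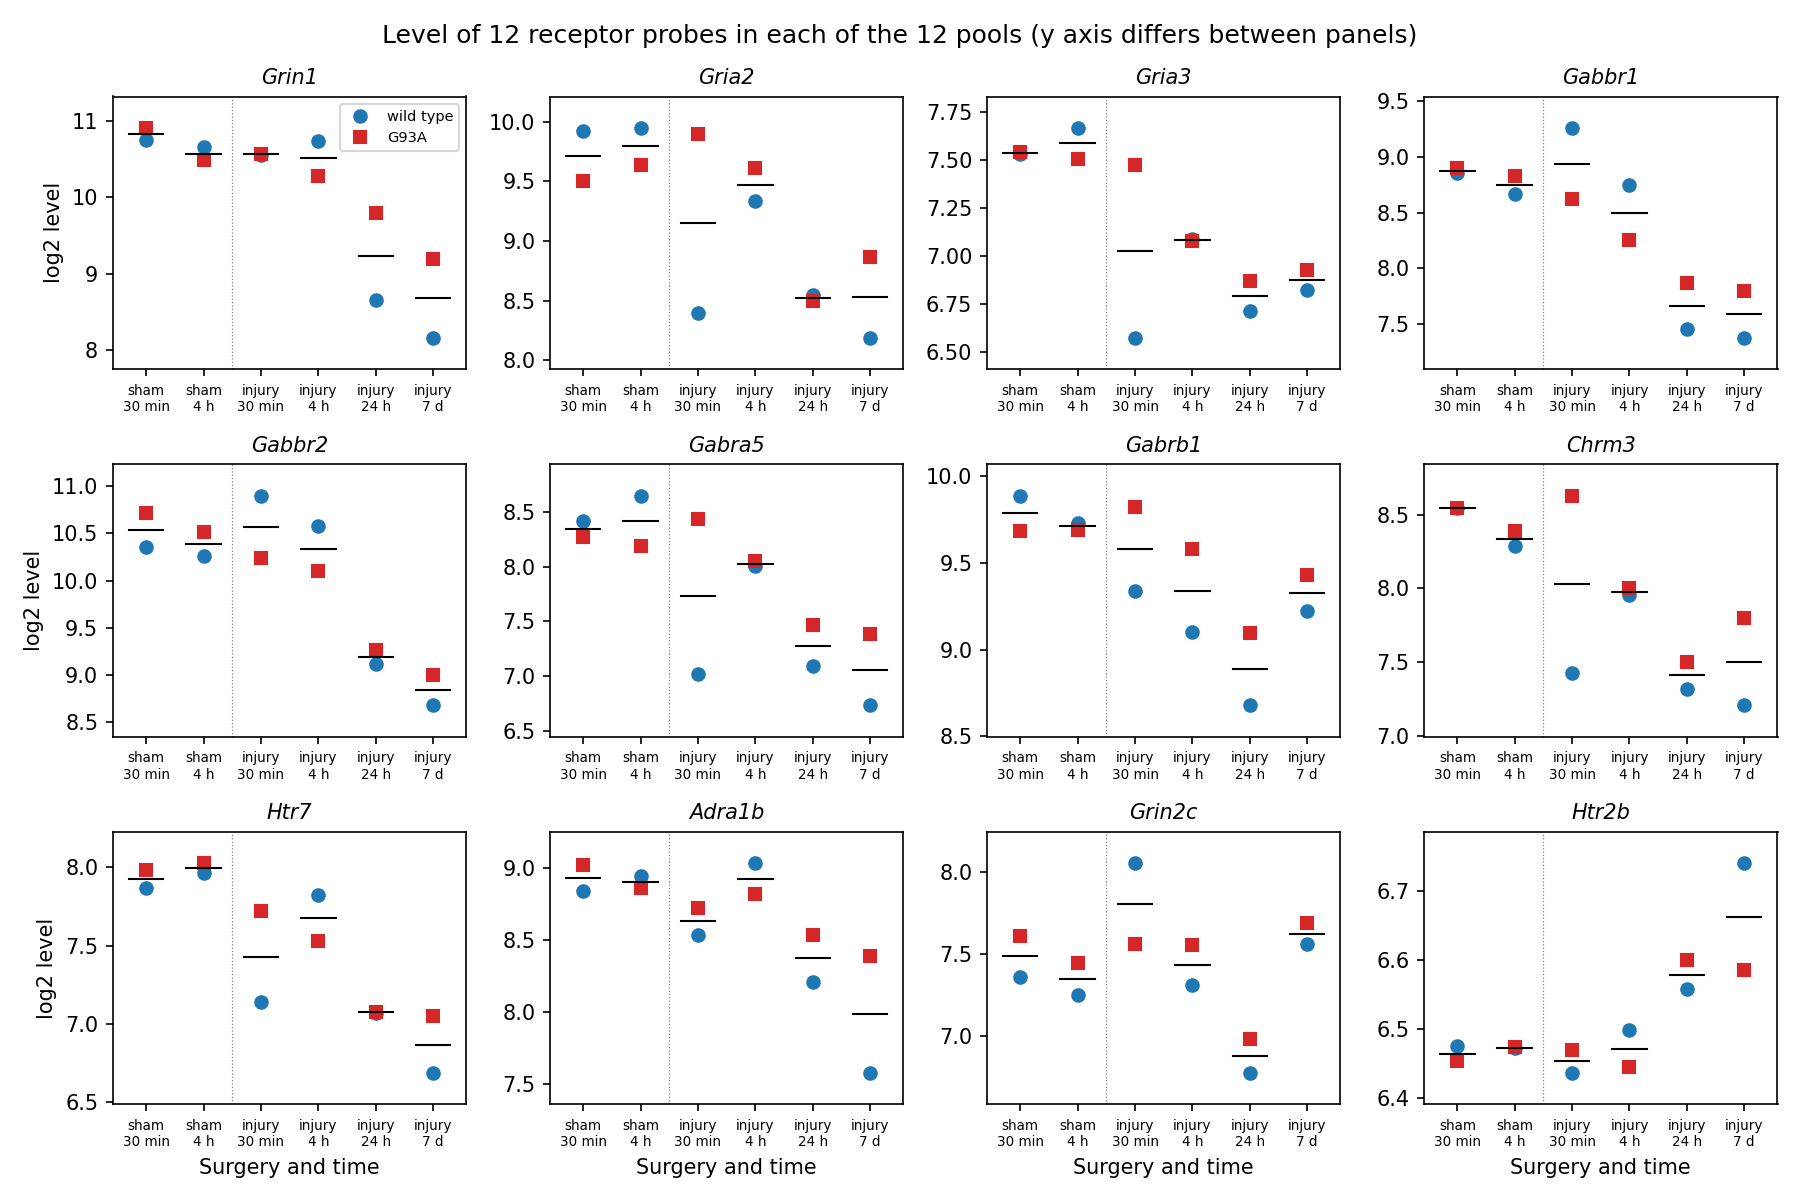
Log2 level (vertical axis, its range differing between panels) by operation and time (horizontal axis) for 12 receptor genes. Each point is 1 pool, circles for wild type and squares for G93A, and the black line is the mean of both pools of a condition. Grin1 runs from 10.91 in the G93A 30 min sham pool to 8.16 in the wild-type 7 d pool, and Htr2b is highest in the 4 late pools.

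Among the inhibitory receptors, both GABA-B genes fell at both late times. Gabbr2 had log2 levels of 10.35 and 10.26 in the wild-type sham pools of 30 min and 4 h and 10.72 and 10.51 in the G93A ones. At 24 h it was 9.11 in wild type and 9.27 in G93A, and at 7 d 8.68 and 8.996. Every late pool was more than 1 log2 unit under the mean of the sham pools, and the genotypes lay close together. Gabbr2 was 2.41-fold lower at 24 h (log2 difference -1.27 ± 0.24, adjusted p = 0.00473) and 3.08-fold lower at 7 d (-1.62 ± 0.24, adjusted p = 0.000969). At 7 d it was the only member to keep its call in each of the 21 alternatives run, with a highest adjusted p of 0.0406. Its 24 h call was lost in 1 of 21, without the wild-type 24 h pool (adjusted p = 0.101).

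Gabbr1 had log2 levels of 8.67 to 8.90 in the sham pools, 7.45 in wild type and 7.86 in G93A at 24 h, and 7.38 and 7.80 at 7 d. It thus lay under all sham pools in each late pool, as did its partner. The log2 difference was -1.16 ± 0.25 at 24 h (adjusted p = 0.00892) and -1.23 ± 0.25 at 7 d (adjusted p = 0.00574). Without the wild-type pool of the time concerned the adjusted p was 0.192 at 24 h and 0.159 at 7 d. At 30 min after injury the wild-type pool was above the sham pools for both genes, at 10.90 for Gabbr2 and 9.26 for Gabbr1, whereas the G93A pool, at 10.24 and 8.62, was not.

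Of 16 GABA-A probes, 7 were detected and 2 of these passed at 24 h. Gabra5, a subunit of extrasynaptic GABA-A channels, ran from 8.19 to 8.65 in the sham pools and was 7.09 and 7.47 at 24 h and 6.74 and 7.38 at 7 d in wild type and G93A. The late pools lay under all sham pools, with log2 differences of -1.10 ± 0.32 (adjusted p = 0.0329) and -1.32 ± 0.32 (adjusted p = 0.0141). The calls were lost in 8 and 5 of 21 alternatives. The wild-type 30 min injury pool, at 7.02, was again as low as the late pools.

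Gabrb1, a beta subunit of the GABA-A channel, was 9.68 to 9.89 in the sham pools, 8.68 in wild type and 9.10 in G93A at 24 h, and 9.22 and 9.43 at 7 d. Both late pairs lay under the sham pools, with the 7 d pair between. It was lower at 24 h (-0.86 ± 0.20, adjusted p = 0.0122), a call lost in 5 of 21 alternatives, and did not pass at 7 d (-0.42 ± 0.20, adjusted p = 0.159). The difference from 24 h to 7 d was 0.44 ± 0.23 (adjusted p = 0.409), or -0.0096 with median scaling. Gabra2, Gabrb2, Gabrd, Gabrg1 and Gabrp did not pass at either time, and their log2 differences lay between -0.072 and 0.036.

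Of the 3 glycine receptor genes, Glrb, the subunit that anchors the receptor to gephyrin, passed at both times. Its deposited signal was 31.4 to 42.7 in the sham pools, -0.235 in wild type and 4.91 in G93A at 24 h, and -3.51 and 15.5 at 7 d. Only the G93A 7 d pool was called detected among the 4 late pools, so without the sham and early injury pools Glrb would not be a member. Glrb was at least 1.09-fold lower at 24 h (adjusted p = 0.0290), a call lost in 8 of 21 alternatives. At 7 d its log2 difference was -0.13 (adjusted p = 0.0447), a call lost in 12 of 21 alternatives. Glra1 and Glra4, 2 alpha subunits, were dim, with log2 differences between -0.017 and 0.032.

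The acetylcholine receptors were mostly dim. Chrm3, a muscarinic receptor coupled to Gq, was the exception, with log2 levels of 8.29 to 8.55 in the sham pools, 7.32 in wild type and 7.50 in G93A at 24 h, and 7.21 and 7.80 at 7 d. All late pools lay under the sham pools. Its log2 difference was -1.03 ± 0.25 at 24 h (adjusted p = 0.0159) and -0.94 ± 0.25 at 7 d (adjusted p = 0.0224). These calls were lost in 5 and 6 of 21 alternatives. Chrm2, a muscarinic receptor coupled to Gi, had a deposited signal of 15.7 to 43.5 in the sham pools and of -2.92 and 7.45 at 7 d. It was undetected in both 7 d pools and at least 1.07-fold lower (adjusted p = 0.0294), a call lost in 8 of 21 alternatives. Detected in no late pool, Chrm2 is a member only through sham and early injury pools, and its fall is a description of that choice.

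Of the 10 nicotinic genes detected, Chrna3 and Chrna5 passed. They are neighbouring genes whose subunits assemble in the nicotinic receptors of autonomic neurons. The signal of Chrna3 was 43.1 to 86.3 in the sham pools, 7.60 and 16.5 at 24 h and 10.8 and 25.5 at 7 d in wild type and G93A. The log2 difference was -0.20 ± 0.045 at 24 h (adjusted p = 0.0109) and -0.18 ± 0.045 at 7 d (adjusted p = 0.0153). These calls were lost in 4 and 6 of 21 alternatives. The signal of Chrna5 was 26.5 to 48.1 in the sham pools and 2.77 and 4.67 at 24 h, where it was undetected in both pools and at least 1.10-fold lower (adjusted p = 0.0324), a call lost in 9 of 21 alternatives. At 7 d Chrna5 did not pass (adjusted p = 0.194). Chrnb4, a nicotinic gene near them on chromosome 8, was dim and passed at neither time. Its mean log2 level was 6.51 in the sham pools, at 24 h and at 7 d. Chrnb1, Chrnd and Chrne, the nicotinic subunits of muscle, had log2 differences between -0.018 and 0.077 and did not pass.

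Among the monoamine receptors, Htr7, a serotonin receptor coupled to Gs, had log2 levels of 7.87 to 8.03 in the sham pools. It was 7.07 in wild type and 7.08 in G93A at 24 h and 6.68 and 7.05 at 7 d. The sham pools lay close together, and the late pools all lay below them. The log2 difference was -0.89 ± 0.20 at 24 h (adjusted p = 0.0107) and -1.09 ± 0.20 at 7 d (adjusted p = 0.00327).

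Htr2b, a serotonin receptor coupled to Gq, was the only member past the threshold in the other direction. Its deposited signal was 7.16 and 7.16 in the wild-type sham pools of 30 min and 4 h and 2.63 and 7.23 in the G93A ones. It was 16.9 in wild type and 26.0 in G93A at 24 h, and 51.8 and 28.7 at 7 d. It was undetected in all 4 sham pools and detected in all 4 late pools, so that only a bound exists: at least 1.14-fold higher at 7 d (adjusted p = 0.00428). At 24 h it was above all sham pools but did not pass (at least 1.08-fold higher, adjusted p = 0.0574). It was detected on 5 arrays, 4 of them the late pools, and so is a member only through the pools where it is high; its rise is a description of that choice. The 7 d call was lost without the wild-type 7 d pool (adjusted p = 0.0982).

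Adra1b, an alpha-1 adrenergic receptor, ran from 8.84 to 9.02 in the sham pools and was 8.21 and 8.53 at 24 h and 7.58 and 8.39 at 7 d in wild type and G93A. All 4 late pools lay under the sham pools. It passed at 7 d (-0.93 ± 0.22, adjusted p = 0.0124) and not at 24 h (-0.54 ± 0.22, adjusted p = 0.103). Without the wild-type 7 d pool the 7 d difference was -0.56 (adjusted p = 0.295). Adra2c and Drd2, a noradrenaline and a dopamine receptor coupled to Gi, did not pass, with log2 differences between -0.34 and -0.27 at the late times. Their highest level was in the wild-type 30 min injury pool, at 8.11 for Adra2c and 7.91 for Drd2, against at most 7.13 and 7.41 in the sham pools.

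**Figure D3:**
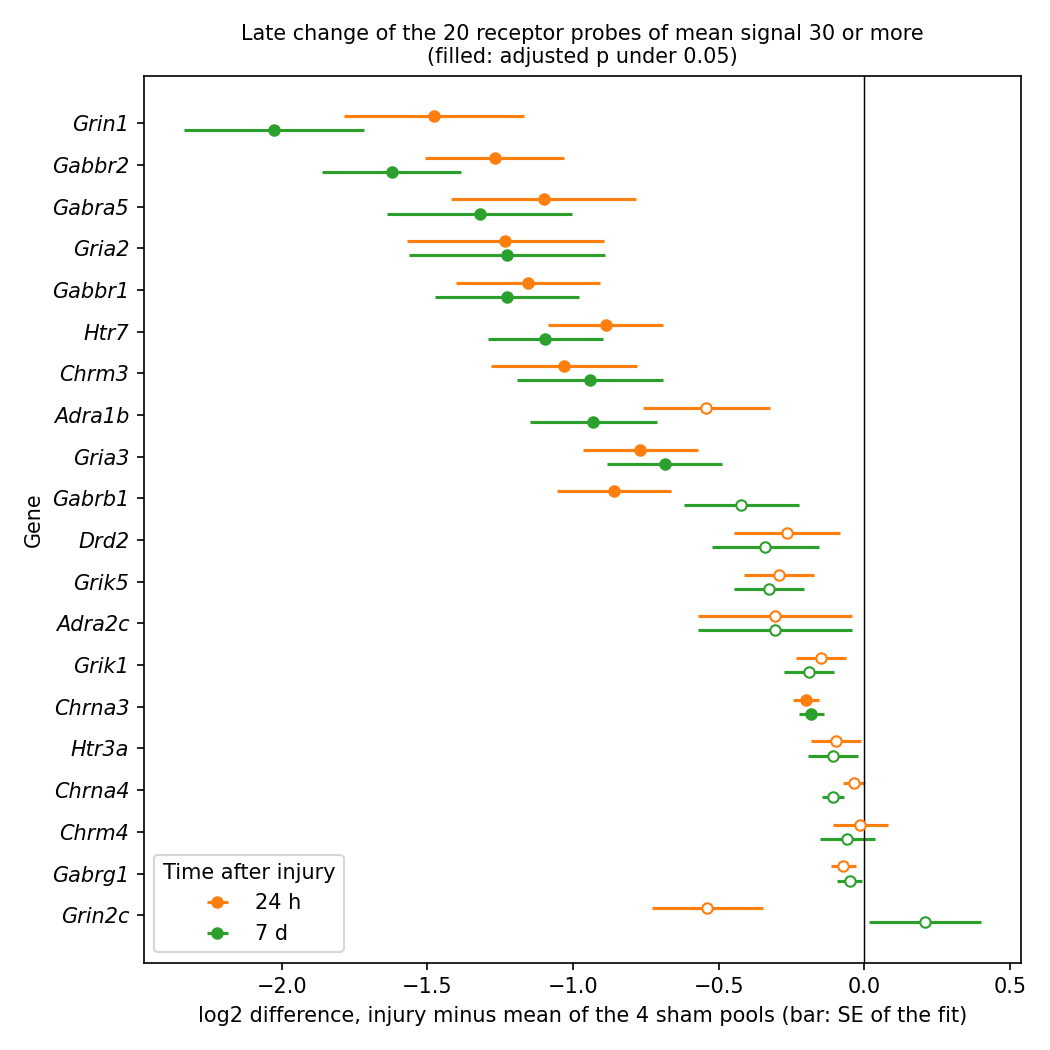
Log2 difference from the mean of the 4 sham pools (horizontal axis) at 24 h and 7 d for the 20 receptor genes of mean signal 30 or more, with bars of 1 standard error of the limma fit and filled points where the adjusted p was under 0.05. Grin1 lies furthest at 7 d, at -2.03, Grin2c lies on both sides of 0, and both times share their sham pools.

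Markers of cell types moved at the same times. Of 12 neuron markers tested, 5 were lower at 24 h and 10 at 7 d, with median log2 differences of -0.69 and -1.28. Over all probes 9.37% were lower at 24 h and 9.63% at 7 d, and 11.4% were higher at each time. The medians over all probes were -0.0062 and -0.0096. Of 4 motor neuron markers, 0 were lower at 24 h and 1 at 7 d, with medians of -0.20 and -0.40. Thy1 and Snap25, a surface and a vesicle fusion protein of neurons, had log2 differences of -2.48 and -1.52 at 24 h and of -2.64 and -2.19 at 7 d. The summed signal of the neuron markers was 44037 to 47073 in the 4 sham pools, 25018.5 in wild type and 30794.5 in G93A at 24 h, and 12860 and 25365 at 7 d. In such tissue, fewer cells of a type and less RNA per cell cannot be told apart. Of 6 astrocyte markers 4 and then 3 were lower, of 8 oligodendrocyte markers 6 and then 3, and of 6 microglia markers 2 were higher at 24 h and 5 at 7 d. Of 4 fibroblast and pericyte markers, 0 were higher at 24 h and 4 at 7 d, where their median log2 difference was 1.64. The summed signal of the 5 macrophage markers was 126.6 to 187.5 in the sham pools, 1134 to 1252 at 24 h and 4069 to 6752 at 7 d. Without the wild-type 30 min injury pool, a setting chosen after the data were seen, 9 and 11 neuron markers were lower at 24 h and 7 d, 6 and 3 astrocyte markers and 8 and 6 oligodendrocyte markers. In that setting the lower calls over all probes rose as well, as given with the late counts, so the rise was not particular to these markers. The part of the cell types in the fall of the receptor genes was not tested.

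The partners of the receptors were read from 3 lists. Of 24 scaffold and auxiliary genes, 8 were lower at 24 h and 7 at 7 d, and 0 were higher, with median log2 differences of -0.12 and -0.13 against -0.0062 and -0.0096 over all probes. Of all probes, 9.37% were lower at 24 h and 9.63% at 7 d, and 11.4% were higher at each time. Dlgap1, a scaffold of the excitatory postsynapse, was lower at 24 h (-0.88 ± 0.17, adjusted p = 0.00515), and Cacng2, the auxiliary AMPA subunit stargazin, at 7 d (-2.11 ± 0.43, adjusted p = 0.00626). Cacng7, another auxiliary AMPA subunit, fell by 0.29 and 0.23 at 24 h and 7 d, and Lynx1, a modulator of nicotinic receptors, fell by 0.26 and 0.31.

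Of 18 genes of transmitter synthesis and transport, 5 were lower at 24 h and 9 at 7 d and 0 were higher, with medians of -0.28 and -0.31. The inhibitory side was among them: Slc32a1, the vesicular transporter of GABA and glycine, had log2 differences of -1.35 and -1.82 at 24 h and 7 d, Slc6a5, the neuronal glycine transporter, of -1.21 and -1.86, and Gad2, which makes GABA, of -0.55 and -0.48. Slc17a6, the vesicular glutamate transporter of spinal neurons, was lower at 7 d (-1.33 ± 0.27, adjusted p = 0.00576). Of 22 genes of receptor signalling, 8 and 9 were lower and 0 were higher, with medians of -0.51 and -0.56. Beside both lists, 9.37% and 9.63% of all probes were lower and 11.4% higher at each time, with medians of -0.0062 and -0.0096. Ppp1r1b, the phosphatase inhibitor DARPP-32, fell by 2.32 and 1.27, Camk2g and Camk2b, calcium-dependent kinases, were lower at both times, and Slc12a5, the chloride exporter on which GABA and glycine inhibition depends and which was picked after its values were seen, was lower at 7 d (-1.41 ± 0.29, adjusted p = 0.00633). Leaving out the wild-type 30 min injury pool raised the late calls over all probes, as given with the late counts, so the rise in the counts that follow was not particular to these lists. Without the wild-type 30 min injury pool, 13 scaffold and auxiliary genes were lower at either time, 7 and 11 of synthesis and transport and 14 of signalling at either time, while 1 scaffold gene and 1 of synthesis and transport were higher at 7 d.

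The earlier comparisons gave no call among the members. Between 4 h and 30 min after the sham operation, 0 of 53 passed, against 0.0508% of all probes, and 2 members (3.77%) had an unadjusted p under 0.05, against 2.16% of all probes. The smallest p-values were those of Chrna3 (log2 difference -0.14 ± 0.051), Chrnb4 (0.066 ± 0.029) and Glra4 (-0.071 ± 0.033), each with an adjusted p of 0.9992. At 30 min after injury 0 members passed, against 0.138% of all probes, and 9 (16.98%) had an unadjusted p under 0.05, against 6.45% of all probes. Chrna3 (-0.19 ± 0.051), Gria4 (-0.12 ± 0.035) and Adrb3 came nearest, each with an adjusted p of 0.626. Adrb3 was detected in both 30 min injury pools and on no other array, so it is a member only through them, and it was at least 1.05-fold higher there than in the sham pools. These values rest on a pair of pools that differed: the log2 difference of G93A from wild type was 1.496 for Gria2, 1.41 for Gabra5 and 1.20 for Chrm3, and -1.32 for Adra2c. Without the G93A 30 min injury pool, 10 members were lower and 11 higher at 30 min, while 4206 of all 13793 probes passed, and without the wild-type one 0 members passed.

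At 4 h after injury 0 members passed, against 0.522% of all probes higher and 0.029% lower, and 1 (1.89%) had an unadjusted p under 0.05, against 5.78% of all probes. Chrm2 came nearest (-0.11 ± 0.040, adjusted p = 0.605), followed by Gria3 (-0.50 ± 0.23, adjusted p = 0.866) and Chrm5 (-0.060 ± 0.028, adjusted p = 0.904). By position, both 4 h pools lay under all 4 sham pools for 13 members (24.5%), against 16.8% of all probes, and above them for 1 (1.89%), against 13.5%. At 30 min the same counts were 5 (9.43%), against 8.19%, and 2 (3.77%), against 6.69%. Between 7 d and 24 h after injury 0 members passed, against 4.52% of all probes in either direction, 2.96% higher and 1.57% lower, and 1 member, Grin2c, had an unadjusted p under 0.05 (1.89%), against 15.4% of all probes. Without either pool of injury at 30 min, 1 member was higher at 7 d than at 24 h.

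Between the genotypes, over the 6 conditions, 0 of 53 members and 0% of all probes passed in limma, and 2 members and 316 probes had an unadjusted p under 0.05. The smallest p-values were those of Gabrd, a GABA-A delta subunit (log2 difference of G93A from wild type 0.045 ± 0.018), Grik5 (0.18 ± 0.080) and Chrm3 (0.35 ± 0.17), each with an adjusted p of 0.979. The test of whether the late response differed between the genotypes also called 0 members and 0% of probes. Grin1 had the smallest p of the members there. Its late response was higher in G93A than in wild type by 1.20 ± 0.25 on the log2 scale (unadjusted p = 0.000924), which did not hold after adjustment over all probes (adjusted p = 0.998).

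The Grin1 pools show where that value comes from. G93A minus wild type was 0.15 and -0.16 after the sham operation at 30 min and 4 h, 0.019 and -0.46 after injury at 30 min and 4 h, and 1.14 and 1.03 at 24 h and 7 d. G93A was thus higher by about 1 log2 unit in both late pairs and not in the earlier ones. Gabbr1 and Adra1b came next in that test, with 0.65 ± 0.30 and 0.55 ± 0.27. Counted after the values were seen, 17 of the 20 brighter members were higher in G93A at 24 h and 19 of 20 at 7 d, against 48.6% and 48.8% of all probes that bright, and 8 to 12 of 20 in the 4 earlier pairs. Of the 12 neuron markers, 10 were higher in G93A at either late time, with median differences of 0.34 and 0.88, and 10 were also higher at 30 min after injury. At 4 h after injury 1 of the 12 was higher in G93A, with a median difference of -0.26. After the sham operation 7 were higher at 30 min and 5 at 4 h, with medians of 0.13 and -0.093. The part of the neuron markers in the genotype difference was not tested. These counts compare 1 pool with 1 pool, so they carry no replicate check.

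**Figure D4:**
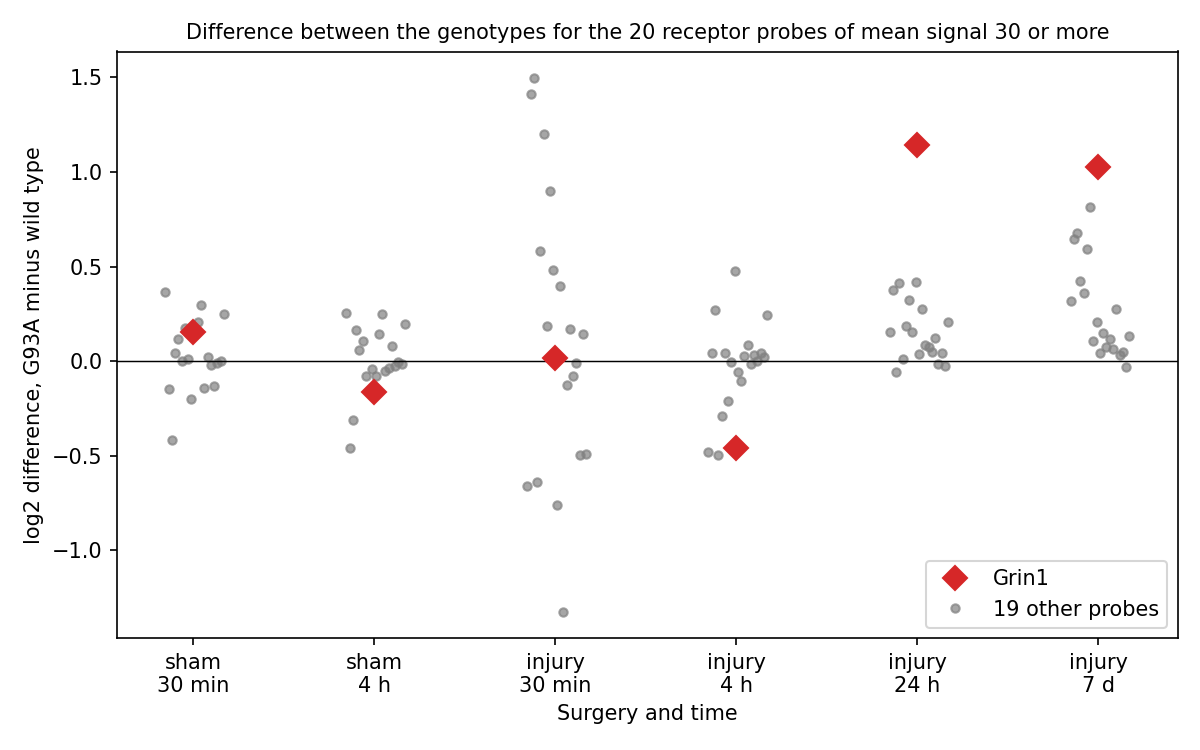
Log2 difference of G93A from wild type (vertical axis) in each of the 6 conditions (horizontal axis) for the 20 receptor genes of mean signal 30 or more, 1 pool against 1 pool per point and Grin1 as a red diamond. The points spread from -1.32 to 1.496 at 30 min after injury, and 19 of 20 lie above 0 at 7 d.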

How the data were processed

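RNA of 12 pools was measured on 12 arrays, grouped by genotype, operation and time from the labels. The deposited intensity values are bead signals after background subtraction (the submitters' processing notes name BeadStudio 3.2.6), with 1 detection p-value per probe and array, per the file headers. Array means lay between 324.9 and 326.9; the sources used here do not say whether they were scaled. A second deposited table of intensity values served as an alternative. No earlier normalization is stated by the authors.

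The deposited probe identifiers stood beside values of other probes, so the identifiers were sorted and the values left in file order, a pairing inferred from the data. After sorting, 8.20% of 185 olfactory receptor probes and 90.5% of 111 ribosomal and proteasome probes were detected on average, against 48.3% and 52.8% as deposited. In the deposited pairing 47 of the 84 receptor probes, rather than 53, pass the detection filter.

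Normalization used neqc (limma 3.58.1, R 4.3.3, offset 16). A limma fit over 13793 probes had terms for 6 conditions and the genotype, eBayes with a trend, and 5 residual degrees of freedom. The model with a genotype by late injury term left 4. The Benjamini-Hochberg threshold was 0.05 over all tested probes within each of 8 contrasts. A probe undetected in all pools of a group gives only a bound on its fold, from the higher of its own level and the lowest level of a detected probe. The fit was tested on simulated data. The number of arrays limits the precision. Any member could be named; those past the threshold, the extremes of each class and, where none passed, the 3 smallest p-values had to be. Of other lists, the named genes are among the 4 of smallest p, apart from the exception stated. Members, lists and comparisons were chosen with earlier results of these data known. Alternatives were the background correction, scaling, offset, filter, trend, genotype term, control pools, the second table and leaving out each pool. Counts over the gene lists were also taken with the wild-type pool of injury at 30 min omitted, a choice made after seeing the data.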

Additional observations from a re-analysis of the deposited data

Results flagged for a closer look

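Of 35 members whose 4 sham pools were checked for a pool far from the others, Grin2b and Htr2b each had 1. For Grin2b, a modulatory NMDA subunit, the wild-type 4 h sham pool lay lowest at 6.45 on the log2 scale, while the nearest of the other sham pools was at 6.52. For Htr2b the G93A 30 min sham pool lay lowest at 6.45, with the nearest at 6.47. Chance gives such a pool in about 5% of groups of 4, and both values lie at the floor of detection.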

How the results depend on the processing

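Single animals or replicates could not be paired, because the labels give no replicate numbers and each group is 1 pool. The pools were paired by condition alone: the genotype term of the main fit sets 6 pairs of pools within conditions. Of the values of called members over all alternatives, 437 kept direction and side of the threshold, 129 kept direction and missed the threshold, and 0 changed direction. Of those of members not called, 874 kept both, 27 passed the threshold and 26 changed direction.

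Without a filter the rule gives 84 members. The 13 members lower at 24 h became 7 without the trend and 8 against the 4 h sham pools, and the 13 at 7 d became 6 without the trend, 8 with the second table and 8 against the 4 h sham pools. Members higher numbered 1 at 24 h without background correction and 1 with median scaling, 0 at 7 d with detection on 6 or more arrays and 0 with the second table, and 1 at 7 d against 24 h without background correction. Leaving out 1 pool at a time, lower members ranged from 0 to 20 at 24 h, 1 to 21 at 7 d and 0 to 10 at 30 min, and higher ones from 0 to 1 at 24 h, 0 to 2 at 7 d, 0 to 11 at 30 min and 0 to 1 between 7 d and 24 h.

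Of all probes, 7 passed between the sham times, 19 without background correction and 4 without the filter, 4 without the trend and 4 with the second table. At 30 min 19 passed, 6 without the trend and 12 with the second table. At 4 h 76 passed, 156 with median scaling, 14 without the trend and 22 with the second table. At 24 h 2870 passed and 1532 against the 4 h sham pools, and at 7 d 2899 and 1902. Between 7 d and 24 h 624 passed and 239 with the second table. Without 1 pool the counts ranged from 2 to 27 between the sham times, 0 to 4206 at 30 min, 0 to 239 at 4 h, 474 to 5068 at 24 h, 636 to 4916 at 7 d, 134 to 1500 between 7 d and 24 h and 0 to 10 for the late genotype term. Median scaling moved the split of higher against lower probes from 1578 and 1292 to 1906 and 831 at 24 h, from 1571 and 1328 to 1092 and 1599 at 7 d and from 408 and 216 to 255 and 680 between them.

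Over all 53 members, those below 0 went from 39 to 26 at 24 h and from 41 to 29 at 7 d with the second table. With the first table, 52.8% and 54.7% of all probes lay below 0 at those times. The following covers only the members and comparisons whose values were rerun, those named by the rule, and not all 53. Direction changed, for members not called, with the second table at 24 h for Grid1 (0.11), Grm2 (0.087), Chrm4 (0.018) and Adrb3 (0.17) and at 7 d for Grid1 (0.012), Adra1a (0.071) and Grid2ip (0.029), with median scaling at 7 d for Grin2c (-0.022) and from 24 h to 7 d for Gabrb1 (-0.0096), and against the 4 h sham pools at 7 d for Glra1 (-0.0097). Without 1 pool, log2 differences crossed 0 at 24 h for Grin2b (-0.017 to 0.046), Glra4 (-0.0053 to 0.069), Chrm4 (-0.077 to 0.050), Adrb3 (-0.033 to 0.015) and Grid2ip (-0.016 to 0.025), and at 7 d for Glra1 (-0.041 to 0.047), Chrm4 (-0.13 to 0.0079) and Adra1a (-0.034 to 0.028). The cause was not tested.

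Signal over background limits the 33 dim members, whose differences lie near the floor. A pool left alone in a condition is assumed to vary like the others.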
